A study of Mus musculus with 6 samples.

Results

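The genes described here encode 1 abundant enzyme for each of 9 steps of glycolysis, from hexokinase to enolase, together with lactate dehydrogenase. They are Hk1, Gpi1, Pfkp, Aldoa, Tpi1, Gapdh, Pgk1, Pgam1, Eno1 and Ldha, chosen by gene symbol, and all 10 were found among the 17348 genes of the deposited table. Glycolysis splits glucose into pyruvate in the cytosol and yields ATP without oxygen, and lactate dehydrogenase interconverts pyruvate and lactate. In the embryonic cortex, neural progenitors are known for a strongly glycolytic metabolism, and neurons turn increasingly to oxidative metabolism as they mature. Several of these genes are textbook targets of the hypoxia-inducible factors, and Gapdh is widely used as a reference transcript.

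The libraries were prepared from mouse cortex at E18.5 (the tissue is labelled brain), 3 from control embryos (Ctrl, labelled WT) and 3 from Ybx1 cKO embryos. The cKO embryos carried Nestin-Cre and Ybx1 fl/fl, the floxed alleles of the gene for an RNA-binding protein that reads m5C in RNA. The study designates Ybx1 fl/fl without Cre as its control, while its RNA-seq methods call the controls wild type littermates. Nestin-Cre recombines in neural progenitors and their progeny, so that it does not target the blood vessel, blood and microglial cells of the cortex, and Nestin-Cre without floxed alleles was not analysed here. The series describes the replicates as different biological replicates, and the p-values below measure the spread between such libraries. The comparison asks whether transcripts of glycolytic enzymes differ in cortex that has lost Ybx1.

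Library totals lay between 15091951 and 16885451 estimated counts, and every member had between 1259 and 20839 counts in each library. Ybx1 itself, at chr4:119277981-119294604 (GRCm38), fell from 1089 ± 182 CPM in Ctrl to 24.6 ± 0.519 CPM in cKO (SD, n = 3 each), with a log2 fold change of -5.47 ± 0.16 (SE) and an adjusted p of 6.96e-07 (edgeR quasi-likelihood test). CPM stands for counts scaled to a library total that was corrected by TMM, a factor for library composition. The Y-linked gene Eif2s3y had 89.2, 103 and 109 CPM in the Ctrl libraries and 0.0619, 0 and 0 CPM in the cKO libraries, and Kdm5d, Ddx3y and Uty were likewise lower in every cKO library. Embryonic sex and genotype therefore cannot be told apart in these libraries. This holds for every gene compared here, the X-linked members of the lists below included. Ctrl replicate 2 stood apart from the other 5 libraries on the first principal component (46% of the variance). Among markers, the 12 cortical projection neuron genes summed to 5668 to 5758 CPM in Ctrl and 4858 to 5435 CPM in cKO, with Tubb3, a neuronal tubulin, as their most abundant gene. Of these 12 genes, 9 had a log2 fold change below 0 and 3 above, and 0 had an adjusted p under 0.05 in edgeR. The lowest adjusted p among them was 0.0722 in edgeR. Slc17a7 went the other way from the sum without overlap, with 33.0, 30.7 and 34.1 CPM in Ctrl and 55.5, 55.1 and 51.6 CPM in cKO. Of all genes tested, 7.35% were higher in cKO without overlap. The 5 choroid plexus markers summed to no more than 0.619 CPM in any library.

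The sequences upstream of the transcription starts were searched for the cores of hypoxia-response elements, because these genes are known for that mode of regulation. In the 250 bases before the RefSeq starts (GRCm38.p6), the letters ACGTG or GCGTG stood on either strand in 8 of the 10 members, all but Gpi1 and Tpi1. The same letters stood before 55.5% of the 13714 genes of the table that have such a window. A gene was counted if the letters stood before any of its RefSeq starts, and several members have more than 1 start. The GC content of the member windows ran from 49.6% to 71.2%, beside a median of 52.4% over all promoter windows. The part of GC content and of the number of starts in these counts was not tested. ACGTG alone was present in 4 members and in 22.9% of the genes, and GCGTG in 6 members and 44.5% of the genes. The 150 bases directly upstream follow for the 4 members in which this stretch held at least 2 such places and touched no exon of GENCODE M21, with the cores in capitals as read 5′ to 3′ on the strand of the gene. CACGT and CACGC are the same cores on the other strand, and cores that overlap count as 1 place.
Ldha: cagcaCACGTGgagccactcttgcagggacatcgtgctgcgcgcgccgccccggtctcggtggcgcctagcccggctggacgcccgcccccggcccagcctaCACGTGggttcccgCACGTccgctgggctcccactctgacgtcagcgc
Pgk1: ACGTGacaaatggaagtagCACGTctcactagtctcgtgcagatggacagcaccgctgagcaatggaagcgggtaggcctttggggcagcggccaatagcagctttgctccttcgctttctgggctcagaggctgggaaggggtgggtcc
Gapdh: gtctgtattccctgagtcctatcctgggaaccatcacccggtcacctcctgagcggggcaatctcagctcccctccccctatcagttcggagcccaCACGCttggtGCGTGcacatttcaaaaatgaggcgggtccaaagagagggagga
Pgam1: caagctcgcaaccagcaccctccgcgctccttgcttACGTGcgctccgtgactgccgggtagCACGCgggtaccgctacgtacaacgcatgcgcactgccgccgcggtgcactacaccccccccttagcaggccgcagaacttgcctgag
The stretches lie at chr7:46845654-46845803 (+ strand, Ldha), chrX:106186950-106187099 (+ strand, Pgk1), chr6:125165774-125165923 (− strand, Gapdh) and chr19:41911721-41911870 (+ strand, Pgam1). Ldha held 3 places, of which the first and the second read the same on both strands, and the other genes held 2 each. The Ldha and Gapdh stretches lie inside the spans of these genes given below, before a RefSeq start within the span. The stretch before another RefSeq start of Ldha held 1 place. Of the other letters searched on both strands, ATTGG, the core of the Y-box that gave Ybx1 its name, was present in 4 members and 40.0% of genes. GGGCGG was present in 7 members and 56.5% of genes, and TATAAA in 0 members and 9.5% of genes.

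On the scale of TPM, which corrects for transcript length and so allows genes to be compared, Gapdh was the most abundant member by far. Its level was 1882 ± 256 TPM in Ctrl and 1941 ± 100 TPM in cKO (SD, n = 3 each), 27.3 times that of Pfkp in Ctrl. Eno1 followed with 453 ± 41.6 TPM in Ctrl, then Ldha with 391 ± 49.0, Pgk1 with 291 ± 20.1, Pgam1 with 286 ± 26.8, Tpi1 with 232 ± 33.9 and Aldoa with 203 ± 28.4 TPM. Among the members, those of the first steps were the least abundant, with Gpi1 at 121 ± 7.39, Hk1 at 111 ± 6.12 and Pfkp at 68.9 ± 1.5 TPM in Ctrl. The order is that of the chosen genes and not of whole steps, as Pfkm, a phosphofructokinase gene outside the members, had 128 ± 6.18 TPM in Ctrl. The Ctrl ranges of neighbours in this order overlapped for Eno1 and Ldha, for Pgk1 and Pgam1, for Pgam1 and Tpi1, for Tpi1 and Aldoa, and for Gpi1 and Hk1. In cKO only Tpi1 and Aldoa overlapped among these neighbours. Together the members took between 0.212% and 0.311% of all estimated counts of a library.

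No member passed the test in the comparison of cKO with Ctrl. Across the 13570 genes tested, 10 (0.0737%) had an adjusted p under 0.05 by edgeR's quasi-likelihood test, and 0 of the 10 members did, with adjusted p between 0.777 and 0.980. DESeq2 and edgeR's exact test also called 0 members, and Hk1 was the only member with an unadjusted p under 0.05 in DESeq2 (p = 0.0478). At an unadjusted p under 0.05, edgeR's quasi-likelihood test gave 0 members lower and 0 higher, against 3.49% and 3.14% of all genes. The median log2 fold change of the members was -0.00047, beside 0.0027 over all genes tested, with 5 members above 0 and 5 below. The 95% intervals of the members together spanned from 0.713-fold to 1.39-fold.

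**Figure D1:**
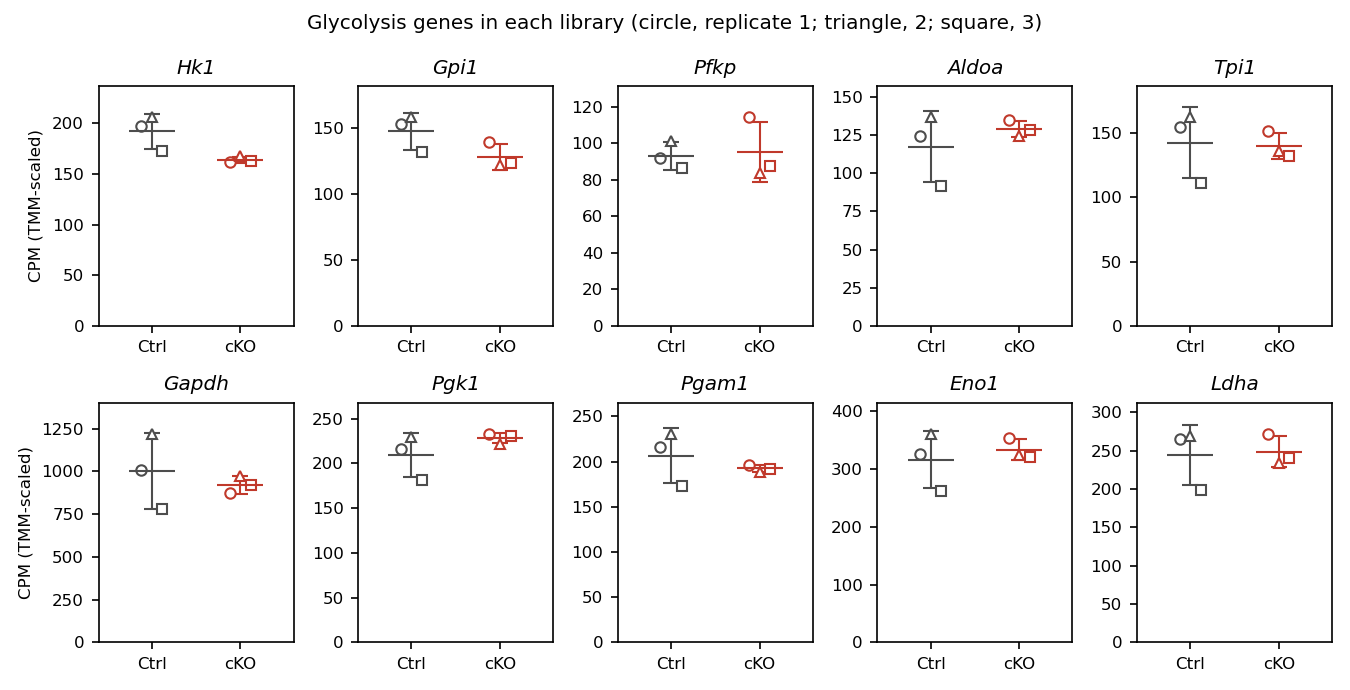
Level of each of the 10 genes (y axis, CPM on TMM-scaled totals, starting at 0) in the Ctrl and cKO libraries, with 1 symbol per library and the mean ± SD of the 3 libraries of a group. The Ctrl and cKO points of Hk1 do not overlap, those of the other 9 genes do, and Ctrl replicate 3 (grey square) is the lowest point for 7 genes.

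Hexokinase 1, which phosphorylates glucose in its entry into the pathway, was the member with the smallest p. Hk1 (chr10:62268855-62379908) had 198, 206 and 173 CPM in Ctrl and 162, 167 and 163 CPM in cKO. Every cKO library was below every Ctrl library, as held for 6.93% of all genes in that direction. The log2 fold change was -0.23 ± 0.11 (SE, 95% interval -0.47 to 0.02), with an unadjusted p of 0.0628 and an adjusted p of 0.777 in edgeR. An exact two-sided permutation test gave p = 0.1, the smallest that 3 against 3 libraries allow. Gpi1 (chr7:34201330-34230336), whose product turns glucose 6-phosphate into fructose 6-phosphate, had 153, 158 and 132 CPM in Ctrl and 139, 122 and 123 CPM in cKO, with a log2 fold change of -0.20 ± 0.12 and an adjusted p of 0.812 in edgeR. Its groups overlapped through Ctrl replicate 3 and cKO replicate 1.

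Pfkp (chr13:6579768-6648777) encodes the platelet-type phosphofructokinase of the committed step of glycolysis. It had 91.8, 101 and 86.3 CPM in Ctrl and 114, 83.7 and 87.6 CPM in cKO. The first cKO library was the highest and the second the lowest of all 6 libraries, and the log2 fold change was 0.03 ± 0.14. Pfkp was also the only member whose estimated counts were not whole numbers in any library. As the counts are per gene, such values can arise where reads are divided between Pfkp and another gene. Whether this was so here was not tested. Gpi1 had whole counts in 4 of the 6 libraries, Gapdh and Eno1 in 5 each, and the other 6 members in all 6. Gapdh and several other members have many processed pseudogenes in the mouse genome, so that their counts are uncertain to the extent that reads were divided or lost to those copies.

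Aldolase A, which cleaves fructose 1,6-bisphosphate, had the highest log2 fold change of the members. Aldoa (chr7:126795234-126800751) had 124, 137 and 91.7 CPM in Ctrl and 135, 124 and 128 CPM in cKO. All 3 cKO libraries lay between the highest and the lowest Ctrl library, and the log2 fold change of 0.14 ± 0.15 (95% interval -0.20 to 0.47) was within the spread of the controls. Tpi1 (chr6:124810586-124814296), whose product interconverts the triose phosphates, had 155, 162 and 111 CPM in Ctrl and 151, 136 and 132 CPM in cKO, with a log2 fold change of -0.03 ± 0.15. Here too all cKO values lay inside the Ctrl range.

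Gapdh (chr6:125161715-125166467), whose product oxidizes glyceraldehyde 3-phosphate and reduces NAD+, varied more in CPM than any other member. It had 1007, 1220 and 781 CPM in Ctrl and 873, 975 and 918 CPM in cKO, with a log2 fold change of -0.12 ± 0.16 (95% interval -0.49 to 0.24) and an adjusted p of 0.913 in edgeR. All cKO values again lay inside the Ctrl range, and the exact two-sided permutation p was 0.7. The 3 genes outside the members whose log2 CPM followed Gapdh most closely over the 6 libraries were Glrx5 (Pearson r = 0.998), Gadd45gip1 (r = 0.995) and Ppa1 (r = 0.995), taken from genes with a mean above 10 CPM. Among the members, r with Gapdh ranged from 0.19 for Pfkp to 0.91 for Pgam1. All of these values share the depth and composition of the same 6 libraries.

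The ATP-yielding kinase Pgk1 is the X-linked member. Pgk1 (chrX:106187100-106203699) had 216, 229 and 182 CPM in Ctrl and 233, 222 and 230 CPM in cKO. Of the 3 cKO libraries, 2 lay above the highest Ctrl library, the log2 fold change was 0.13 ± 0.12 (95% interval -0.14 to 0.39), and the adjusted p in edgeR was 0.871. Pgam1 (chr19:41911923-41918660), the phosphoglycerate mutase of brain, had 216, 231 and 173 CPM in Ctrl and 196, 189 and 192 CPM in cKO, with a log2 fold change of -0.10 ± 0.13. Eno1 (chr4:150236721-150248879), the broadly expressed enolase, had 325, 360 and 262 CPM in Ctrl and 353, 324 and 320 CPM in cKO, with a log2 fold change of 0.07 ± 0.14. For both genes every cKO value lay inside the Ctrl range. Ldha (chr7:46841475-46855627), which encodes the lactate dehydrogenase subunit known for turning pyruvate into lactate, had 265, 269 and 199 CPM in Ctrl and 272, 234 and 241 CPM in cKO, with a log2 fold change of 0.03 ± 0.14. Its highest value was that of cKO replicate 1 and its lowest that of Ctrl replicate 3.

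The spread of these genes came mostly from the Ctrl libraries. Of the 10 members, 9 had a larger SD of log2 CPM in Ctrl than in cKO, all but Pfkp, as did 77.0% of all genes tested. The median SD of the members was 0.227 in Ctrl and 0.0792 in cKO, beside 0.218 and 0.104 over all genes. Ctrl replicate 3 had the lowest value of all 6 libraries in 7 members and in 22.5% of all genes, and Ctrl replicate 2 the highest value in 7 members and in 33.6% of all genes. The median deviation of the members from their own mean was -0.28 on the log2 scale in Ctrl replicate 3 and 0.18 in Ctrl replicate 2, while the median over all genes was -0.0052 and 0.0048 in these libraries. All 10 members were below their own mean in Ctrl replicate 3 and above it in Ctrl replicate 2. Without Ctrl replicate 3 the median log2 fold change of the members was -0.14, with 1 member above 0. In that comparison Hk1 and Gpi1, 2 of the 10 members, were lower at an unadjusted p under 0.05 by edgeR, beside 7.97% of all genes, and their adjusted p was 0.306 and 0.335. Without Ctrl replicate 2 the median was 0.08.

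**Figure D2:**
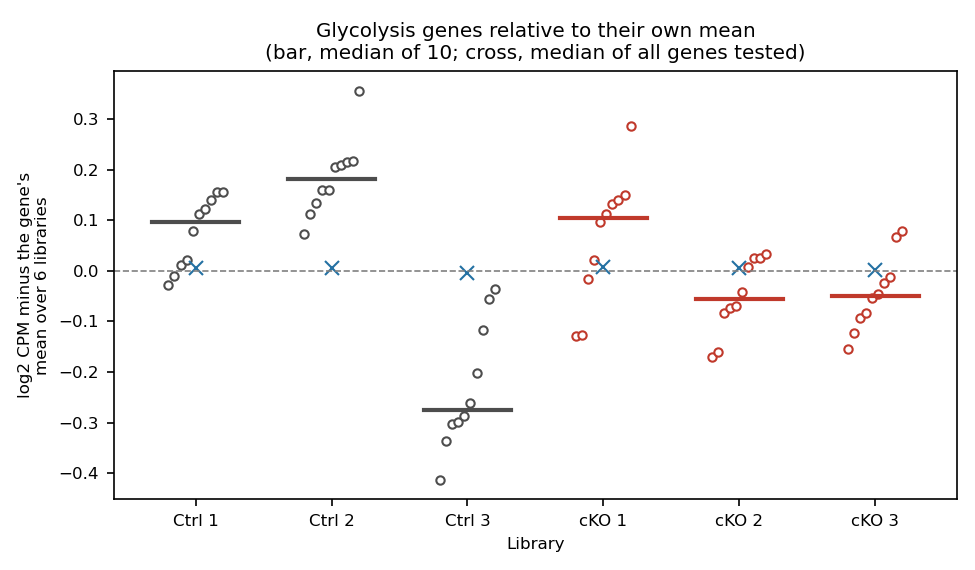
Deviation of each of the 10 genes in each library (y axis, log2 CPM minus the mean of that gene over the 6 libraries), with bars at the median of the 10 genes and crosses at the median of all genes tested. The bar of Ctrl replicate 3 is at -0.28 and that of Ctrl replicate 2 at 0.18, while the crosses stay near 0.

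Length and GC content of the transcripts moved with these differences between libraries. Among all genes tested, those with the shortest transcripts (216 to 2547 bases, 4445 genes) had a median deviation of 0.249 in Ctrl replicate 2 and -0.113 in Ctrl replicate 3, and those with the longest (4252 bases or more) had -0.255 and 0.0938. Of the members, 7 belong to the short class, from Gapdh with 1420 to Eno1 with 2027 bases, and Hk1 with 4278 bases to the long class. A smooth trend on length and GC content was therefore removed from each library. After that correction, Hk1 (log2 fold change -0.22 ± 0.06 SE, adjusted p = 0.152) and Gpi1 (-0.17 ± 0.07, adjusted p = 0.365) were lower at an unadjusted p under 0.05 in edgeR, as were 7.66% of all genes. Aldoa (0.26 ± 0.09, adjusted p = 0.226) and Pgk1 (0.17 ± 0.07, adjusted p = 0.344) were higher at that threshold, as were 5.82% of all genes. Gapdh was at 0.02 ± 0.08, and no member had an adjusted p under 0.05 after the correction either. These calls depended on the transcript taken for each gene: with the median over all annotated transcripts, fragments included (565 bases for Gapdh), in place of the longest coding one, 0 members had an unadjusted p under 0.05, with Hk1 at -0.16, Aldoa at 0.21 and Gapdh at -0.049. The part that length and GC content had in the uncorrected values of single members was not tested.

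**Figure D3:**
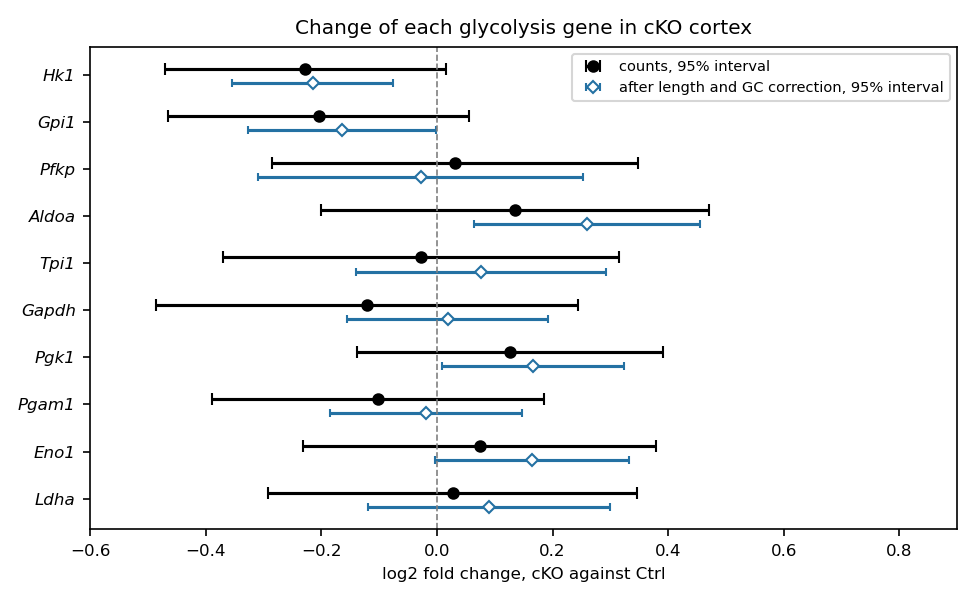
Log2 fold change of each gene in cKO against Ctrl (x axis) from the counts (black circles) and after the length and GC correction (open blue diamonds), both with 95% intervals. All 10 intervals from the counts include 0, and after the correction with the longest coding transcripts those of Hk1, Gpi1, Aldoa and Pgk1 do not.

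The authors' TPM values of most members were higher in cKO, as were those of most genes. On log2(TPM + 1), the median of all genes tested was 0.141 higher in cKO than in Ctrl, and the median of the members was 0.152 higher, so that the members differed from all genes by 0.011. By limma, Pgk1 (0.28), Aldoa (0.31) and Eno1 (0.23) were higher in cKO at an unadjusted p under 0.05, 3 of the 10 members beside 8.83% of all genes, with adjusted p from 0.412 to 0.478. The TPM values of these same genes did not overlap between groups, which held for 19.2% of all genes in that direction. Aldoa had 224, 214 and 171 TPM in Ctrl and 262, 239 and 248 TPM in cKO. Summed over the 10 members, the level was 4332, 4258 and 3527 TPM in Ctrl and 4438, 4383 and 4298 TPM in cKO, and an exact two-sided permutation test gave p = 0.2.

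Ratios between members do not depend on the scaling of the library. Trends on length and GC content need not cancel in them, and their part in the ratios was not tested. As a share of the Gapdh CPM, Aldoa was at 12.3, 11.2 and 11.8% in Ctrl and 15.5, 12.8 and 14.0% in cKO. It was the only one of the 9 members compared with Gapdh whose ratio did not overlap between groups. The log2 difference was 0.25, with an exact two-sided permutation p of 0.1, the smallest possible, before any adjustment for the 9 ratios. All 9 ratios share the same Gapdh values, which ran from 781 to 1220 CPM in Ctrl, and the CPM of Aldoa itself overlapped between groups. The share of all genes whose ratio to Gapdh does not overlap was not computed. Pgk1 was at 21.2 ± 2.26% of Gapdh in Ctrl and 24.8 ± 1.98% in cKO (p = 0.2, exact permutation test), and Eno1 at 31.8 ± 2.06% and 36.2 ± 3.82% (p = 0.2, exact permutation test). Hk1 was at 19.5 ± 2.63% and 17.8 ± 0.712%, and Pgam1 at 20.8 ± 1.68% and 20.9 ± 1.58% (SD, n = 3 each).

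As a reference transcript, Gapdh was no steadier than a typical gene on the CPM scale. Over the 6 libraries its coefficient of variation was 15.5%, beside a median of 14.2% over all genes tested and of 11.5% over the 3005 genes with a mean of 90 CPM or more, and its highest value was 1.56 times its lowest. Among reference genes, Ywhaz (5.44%), Sdha (5.93%) and Actb (8.40%) varied least, followed by Pgk1 (8.74%) and Ppia (9.19%). Tbp, Tfrc, Gusb, Hprt and B2m ranged from 10.7% to 23.9%. These coefficients and their order hold for CPM, and they were not computed on TPM. On that scale Gapdh had 1979, 2076 and 1591 TPM in Ctrl and 1848, 2047 and 1929 TPM in cKO. Ywhaz had 646, 553 and 700 TPM in Ctrl and 708, 755 and 770 TPM in cKO. Tubb5, a tubulin, had 3312, 4172 and 2897 CPM in Ctrl and 2322, 2513 and 2437 CPM in cKO without overlap, and a log2 fold change of -0.51 ± 0.15 with an adjusted p of 0.482 in edgeR. Of the 12 reference genes, 0 had an adjusted p under 0.05, and at an unadjusted p under 0.05 Hprt (0.39) was higher and Tubb5 lower.

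Most steps of glycolysis have more than 1 gene, and the shares of these isozymes were close in both groups. On the TPM scale, Hk1 made up 95.8 ± 0.543% of the summed Hk1, Hk2, Hk3 and Hkdc1 transcripts in Ctrl and 95.3 ± 0.709% in cKO (SD, n = 3 each), and Hk2, the isozyme of insulin-sensitive tissue and tumours, 3.88 ± 0.653% and 4.17 ± 0.789%. At the phosphofructokinase step Pfkm, the muscle type, was the most abundant with 49.4 ± 1.21% in Ctrl, ahead of Pfkp with 26.7 ± 1.5% and Pfkl with 24 ± 2.3%. The member Pfkp was therefore not the main phosphofructokinase transcript, and its share in cKO was 28.1 ± 3.25%. Aldoa made up 78.7, 80.3 and 84.7% of the aldolase transcripts in Ctrl and 78.6, 77.5 and 79.2% in cKO. The remainder was almost all Aldoc, the brain aldolase, which had 65.0, 63.9 and 31.8 CPM in Ctrl and 71.1, 69.9 and 65.3 CPM in cKO, with Ctrl replicate 3 far below the other 5 libraries. The log2 fold change of Aldoc was 0.36 ± 0.24 with an adjusted p of 0.840 in edgeR.

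Eno1 held 90.04 ± 1.62% of the enolase transcripts in Ctrl and 90.7 ± 0.494% in cKO, and Eno2, the enolase of neurons, 7.13 ± 0.992% and 6.24 ± 0.162%. Eno1b, a near-identical copy of Eno1, was given at most 0.02 counts in any library. Ldha and Ldhb, the subunits that assemble into the tetramers of lactate dehydrogenase, were present at similar levels, with Ldha at 56.5, 49.5 and 53.0% of the sum in Ctrl and 57.5, 52.5 and 54.0% in cKO. Gapdh and Pgam1 made up at least 99.2% of the transcripts of their steps in every library. The smallest exact permutation p among the isozyme shares was 0.2. Of the 12 other isozymes counted here, 0 had an unadjusted p under 0.05, 4 had a log2 fold change above 0 and 8 below, with a median of -0.08. Pyruvate kinase Pkm, which carries the last step of glycolysis and is no member, had 745, 854 and 645 CPM in Ctrl and 670, 693 and 684 CPM in cKO, with a log2 fold change of -0.13 ± 0.13. The others above 1 CPM were Pfkl, Pfkm, Ldhb, Eno2, Eno3, Bpgm, Hk2, Adpgk and Gapdhs, with log2 fold changes between -0.44 for Gapdhs and 0.15 for Adpgk. Gapdhs had a mean of 2.56 CPM in Ctrl, so that its value rests on few counts.

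**Figure D4:**
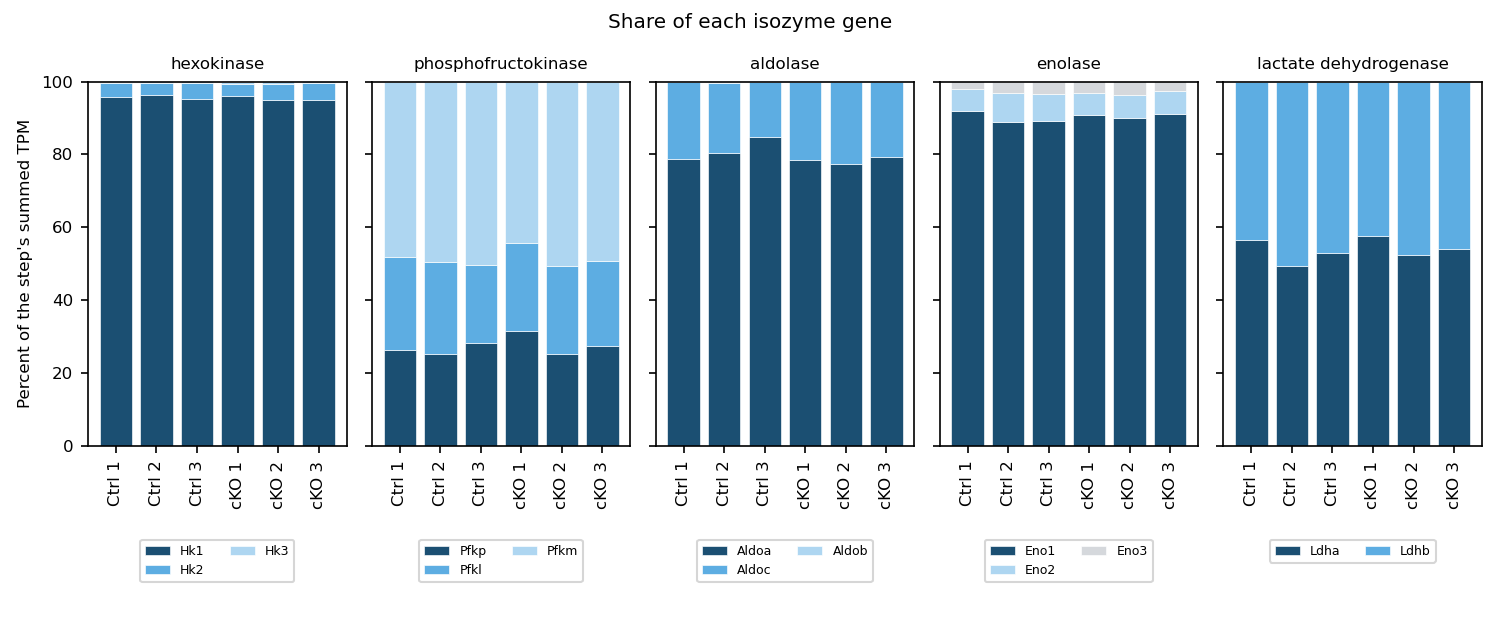
Share of each isozyme gene in the summed TPM of its step (y axis, percent) in the 6 libraries, for the 5 steps with more than 1 gene above 1% of the sum. Hk1, Aldoa and Eno1 take most of their steps in every library, Pfkm takes the largest share of phosphofructokinase, and Ldha lies between 49.5% and 57.5%.

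The genes around glycolysis were counted in 6 further groups, and 0 of their genes had an adjusted p under 0.05 by edgeR's quasi-likelihood test. At an unadjusted p under 0.05 in that test, the counts of each group can be read against the 3.14% of all genes that were higher and the 3.49% that were lower. Of 12 glucose and lactate transporters, 10 had a log2 fold change above 0 and the median was 0.23, with 1 gene higher and 1 lower at an unadjusted p under 0.05. The neuronal glucose transporter Slc2a3 had 51.4, 46.4 and 56.9 CPM in Ctrl and 71.1, 59.1 and 58.9 CPM in cKO, without overlap (0.29 ± 0.13, adjusted p = 0.735). The insulin-responsive transporter Slc2a4 had a mean of 3.78 CPM in Ctrl and 2.49 CPM in cKO (-0.60 ± 0.24, adjusted p = 0.687). The 10 endothelial and pericyte markers summed to 417 to 481 CPM in Ctrl and 470 to 586 CPM in cKO, with none at 0 and 9 of 10 above 0 in log2 fold change. Their part in the transporter values was not tested, nor can a change in the number of such cells be told apart from a change in RNA per cell in bulk tissue.

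Among 18 regulators of glycolysis and of pyruvate entry into mitochondria, 0 were higher and 1 lower at an unadjusted p under 0.05, and the median was 0.04. That gene was Pdp1, the phosphatase that activates pyruvate dehydrogenase, with 79.6, 73.7 and 84.8 CPM in Ctrl and 61.3, 62.1 and 67.0 CPM in cKO (log2 fold change -0.32 ± 0.10, adjusted p = 0.559 in edgeR). Pfkfb4, which sets the level of fructose 2,6-bisphosphate, had a mean of 33.7 CPM in Ctrl and 29.2 CPM in cKO (adjusted p = 0.796). Pdp1 and Pfkfb4 were both lower in cKO without overlap between groups, as were 3 of the 18 regulators in all, while another 3 were higher without overlap, beside 6.93% and 7.35% of all genes.

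Of 21 genes of pathways that branch from glycolysis, 0 were higher and 2 lower at an unadjusted p under 0.05, against 3.14% and 3.49% of all genes, and the median was -0.09. G6pdx, the first enzyme of the pentose phosphate pathway, had the smallest p of all these lists, with 74.4, 74.4 and 68.2 CPM in Ctrl and 49.8, 56.7 and 49.4 CPM in cKO. Each cKO library was well below each Ctrl library, and the log2 fold change was -0.48 ± 0.11 with an unadjusted p of 0.0016 and an adjusted p of 0.34 in edgeR. Its adjusted p was 0.0205 in DESeq2, 0.043 in edgeR's exact test and 0.0356 after the length and GC correction. It was not under 0.05 in that correction with the replicate block or on the median transcript, nor in the quasi-likelihood test without any single library, and it ranged from 0.0205 to 1.0 over the 18 alternatives that kept the gene. G6pdx is X-linked, as are Pgk1 and Hprt. For this gene, as for every gene compared here, the difference between the embryos in Y-linked transcripts cannot be told apart from genotype. Pgk1 and Hprt had log2 fold changes above 0, with adjusted p of 0.871 and 0.687 in edgeR. The part of sex in the values of these X-linked genes was not tested. The other was Gpd1, which makes glycerol 3-phosphate, with a mean of 8.20 CPM in Ctrl and 6.44 CPM in cKO (-0.35 ± 0.15, adjusted p = 0.742).

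The 7 genes of the NADH shuttles, which carry the electrons of glycolysis into mitochondria, had a median log2 fold change of -0.17, with 5 below 0 and 1 lower at an unadjusted p under 0.05. This was the aspartate-glutamate carrier Slc25a12, with 58.4 ± 5.52 CPM in Ctrl and 48.3 ± 4.16 CPM in cKO (SD, n = 3 each, adjusted p = 0.732 in edgeR). Got2, the mitochondrial aspartate aminotransferase, had 143 ± 9.30 and 127 ± 2.85 CPM without overlap (adjusted p = 0.819 in edgeR). The 4 tested genes of gluconeogenesis, among them Pck2 and G6pc3, all had log2 fold changes below 0, from -0.20 to -0.10, and 0 had an unadjusted p under 0.05.

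Of 23 tested genes of the hypoxia response, 18 had a log2 fold change above 0, with a median of 0.09, and 2 were higher and 0 lower at an unadjusted p under 0.05, against 3.14% and 3.49% of all genes. Hif3a, a member of the hypoxia-inducible factor family, had 10.3, 6.68 and 10.8 CPM in Ctrl and 13.7, 12.02 and 12.8 CPM in cKO (0.48 ± 0.20, adjusted p = 0.711 in edgeR), and these values did not overlap. Ero1a, an oxidase of the endoplasmic reticulum, had 36.4, 31.97 and 50.0 CPM in Ctrl and 56.2, 47.7 and 51.8 CPM in cKO (0.40 ± 0.17, adjusted p = 0.731 in edgeR), and here Ctrl replicate 3 lay among the cKO libraries. The list summed to 1373 to 1476 CPM in Ctrl and 1507 to 1521 CPM in cKO. An exact two-sided permutation test of this sum gave p = 0.1, the smallest that 3 against 3 libraries allow. Higher in cKO without overlap, beside 7.35% of all genes, were 2 of 12 transporters, 3 of 18 regulators, 3 of 21 branch genes, 3 of 23 hypoxia genes, 2 of 12 isozymes, and 0 of the shuttle, gluconeogenesis and glycolysis genes. Lower without overlap, beside 6.93% of all genes, were 1 of 12 transporters, 3 of 18 regulators, 2 of 21 branch genes, 1 of 7 shuttle genes, 0 of 4 gluconeogenesis genes, 1 of 23 hypoxia genes, 1 of 12 isozymes and 1 of the 10 glycolysis genes, Hk1.

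Among the markers of other cell types, the 11 erythroid genes, of which 10 were in the table, summed to 987 to 1353 CPM in Ctrl and 1001 to 1220 CPM in cKO. The 9 microglial genes summed to 53.5 to 72.8 and 62.8 to 68.0 CPM, and the 10 radial glia genes to 751 to 999 and 837 to 927 CPM. Ctrl replicate 3 was the lowest library in the radial glia and erythroid lists, as in most of the glycolysis genes. In the microglial list it was not. It was also the lowest in the sums of the other isozymes, transporters, branch genes and NADH shuttles. In those of the regulators, gluconeogenesis and hypoxia response it was not. Ranges of the groups overlapped for these marker lists, and whether cell composition had a part in the spread of the glycolysis genes was not tested.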

How the data were processed

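RNA-seq libraries of E18.5 cortex (3 Ctrl, 3 cKO) were grouped by the submitters' titles. The authors deposited 1 table with estimated counts, TPM and FPKM per gene and library. The deposited estimated counts are unnormalized. The deposited TPM and FPKM values are scaled for transcript length and for the library. Group mean columns were not used. The submitters' processing notes name HISAT2 2.2.1, Bowtie2 2.4.5 and RSEM 1.3.1 and the builds GRCm38 and mm10, with no roles, and strandedness is not given in the sources used here.

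Estimated counts were rounded to whole numbers (89.4% already were), filtered with filterByExpr, scaled by TMM and tested in edgeR by quasi-likelihood, with p-values adjusted by Benjamini-Hochberg over all genes tested (edgeR 4.0.16, limma 3.58.1, DESeq2 1.42.0 and mgcv 1.9.3 in R 4.3.3). TPM and FPKM were compared with limma after adding 1. Permutation tests were exact and two-sided. The length and GC correction used the longest coding transcript of GENCODE M21 (96.7% of genes matched) and smooth trends from mgcv. The longest coding transcript replaced the median transcript after a first run, whose lengths were too short for several members (565 bases for Gapdh), and that version was kept as an alternative added after seeing the data. The biological coefficient of variation was 0.147, and intervals cover the spread between libraries. Replicates of a group differed by more than sampling noise (chi-square per degree of freedom 3.51 to 65.4).

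The members and lists were chosen with earlier results of these data known. Genes named besides the members were the tested isozymes above 1 CPM, the reference and Y-linked genes, of each other pathway list those passing the adjusted threshold and the 2 with the smallest p, and the 3 genes most like Gapdh. Items withheld for evaluation are not reported here and were left out of the lists and the isozyme shares. Other experiments of the study were not analysed here. Upstream sequences are from RefSeq (GRCm38.p6), and all 10 members matched. Protein sequences were not used here. Alternatives were a replicate block, RLE size factors, DESeq2, edgeR's exact test, no filter or CPM above 1 in 2 libraries, TMM without ribosomal protein and translation factor genes, no X and Y genes, the length and GC correction alone or together with the block, TPM, FPKM and each library left out.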

Additional observations from a re-analysis of the deposited data

How the results depend on the processing

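Of the alternatives run, 0 gave any member an adjusted p under 0.05. Same-numbered libraries correlated at 0.0615 to 0.23 in their deviations from the group means, and differently numbered ones at -0.146 to 0.0588. The main fit did not take the numbers as pairs, and the replicate block did. Whether the same-numbered libraries are pairs was not tested. With the replicate block 11 genes were called against 10, the median of the members was 0.0048, and 14 genes of the other pathway lists had an unadjusted p under 0.05 against 8. DESeq2 called 98 genes and edgeR's exact test 97, each including 1 gene of those lists, and DESeq2 gave 1 member lower at an unadjusted p under 0.05. Without X and Y genes 6 were called. The length and GC correction called 194 genes, 1 of them in the lists, and with the block 177 genes, 0 of them in the lists, with 2 members lower and 2 higher (2 and 3 with the block) and 15 list genes (18) at an unadjusted p under 0.05. On the median transcript, an alternative added after seeing the data, the correction called 27 genes, 0 of them in the lists, gave 0 members at an unadjusted p under 0.05 and put Tpi1 at 0.031. On the longest coding transcript it turned Pfkp to -0.028 (-0.030 with the block), Tpi1 to 0.076 (0.082) and Gapdh to 0.019 (0.020). With TPM the median of the members was 0.15, 3 were higher and 20 list genes passed the unadjusted threshold, with Tpi1 at 0.14, Gapdh at 0.053 and Pgam1 at 0.058. With FPKM Tpi1 was at 0.036.

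Leaving out each library gave 8 to 122 called genes, most without Ctrl replicate 2 (and 19 without Ctrl replicate 3), a member median of -0.14 to 0.085, 0 to 2 members lower and 3 to 14 list genes. The log2 fold change of Aldoa then ranged from -0.015 to 0.26, of Tpi1 from -0.18 to 0.074, of Gapdh from -0.27 to 0.044, of Eno1 from -0.044 to 0.18 and of Ldha from -0.10 to 0.10. For these 5 genes the lowest value was without Ctrl replicate 3 and the highest without Ctrl replicate 2. Pfkp ranged from -0.12 to 0.12. The median log2 ratio to Gapdh was 0.12 and ranged from -0.0095 to 0.22. In each case the cause was not tested.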
